A study of Mus musculus with 12 samples.

Results

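Expression of 10 genes of megakaryocytes and platelets was followed in mouse bone marrow libraries labelled KO or WT for U2af1, whose product is the smaller subunit of the U2 auxiliary factor and marks the 3' ends of introns for splicing. The genes were chosen by name, as platelet receptors, granule proteins and markers of the lineage, and all 10 were found among the 24533 genes listed once in each of the 2 deposited tables. There were 12 libraries of C57BL/6 bone marrow in 4 groups of 3. The groups were LSK cells labelled U2af1KO, LSK cells labelled WT, lineage-negative (LinNeg) cells labelled U2af1KO and LinNeg cells labelled WT. LinNeg cells are marrow cells from which mature blood lineages were removed on magnetic columns before flow sorting, and LSK cells are the Sca-1 and c-Kit positive fraction of these, in which the stem cells lie. All LSK libraries, of both genotype labels, carry the source label BMT, which is not spelled out. The allele, any Cre driver and its inducer, and the age of the animals were not stated by these sources.

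Megakaryocytes are the large marrow cells that shed platelets. Their surface carries the GPIb-IX receptor, which catches von Willebrand factor at a damaged vessel wall, and the integrin alpha IIb beta 3, which binds fibrinogen. Their alpha granules hold chemokines, adhesion proteins and clotting factors. Several of these genes are also read in blood stem cells, where Vwf and Itga2b mark cells that lean towards platelet production, and Vwf and Selp are textbook genes of endothelium. GATA and ETS family factors are known to bind promoters of megakaryocyte genes.

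The promoters of the GPIb-IX subunits and of Itga2b are printed because these genes form the receptors described first, and because GATA and ETS motifs differ among them. The sequences are from RefSeq (GRCm38.p6, the assembly also called mm10) and hold the 250 bases before the RefSeq start of the gene, with matches to GATA, ETS and RUNX letters in capitals. The GATA motif was searched as the letters AGATAA and, with another last letter, AGATAG, and also as TGATAA and, with that last letter, TGATAG. The ETS motif was searched as AGGAAG and in its other form CGGAAG, and the RUNX motif as TGTGGT and in its other form TGCGGT, each on both strands. Gp1ba lies on the plus strand at chr11:70638872-70639121, Gp1bb on the minus strand at chr16:18622404-18622653, Gp9 on the plus strand at chr6:87777820-87778069 and Itga2b on the minus strand at chr11:102469884-102470133. GENCODE M21 starts Itga2b further upstream, so 239 of the 250 bases of its window lie inside the GENCODE gene, as do 159 for Nrgn and all 250 for Plek, whose windows are not printed.
Gp1ba: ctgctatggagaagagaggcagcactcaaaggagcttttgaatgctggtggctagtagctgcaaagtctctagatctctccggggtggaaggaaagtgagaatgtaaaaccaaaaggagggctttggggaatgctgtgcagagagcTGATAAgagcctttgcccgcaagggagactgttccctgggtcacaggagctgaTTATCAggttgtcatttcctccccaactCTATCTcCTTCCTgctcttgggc
Gp1bb: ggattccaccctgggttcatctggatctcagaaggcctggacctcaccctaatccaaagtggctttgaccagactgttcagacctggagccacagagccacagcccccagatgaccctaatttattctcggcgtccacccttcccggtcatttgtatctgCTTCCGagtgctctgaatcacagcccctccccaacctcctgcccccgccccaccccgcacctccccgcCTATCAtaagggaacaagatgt
Gp9: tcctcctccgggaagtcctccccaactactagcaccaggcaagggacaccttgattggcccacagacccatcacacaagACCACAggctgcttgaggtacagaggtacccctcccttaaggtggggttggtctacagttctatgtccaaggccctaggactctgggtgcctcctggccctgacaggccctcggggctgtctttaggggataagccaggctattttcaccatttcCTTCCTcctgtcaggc
Itga2b: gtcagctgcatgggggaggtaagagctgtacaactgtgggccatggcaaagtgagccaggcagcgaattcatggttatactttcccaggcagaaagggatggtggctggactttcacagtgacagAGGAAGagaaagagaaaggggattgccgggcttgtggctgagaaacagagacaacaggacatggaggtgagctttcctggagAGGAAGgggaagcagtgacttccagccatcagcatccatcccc

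A RefSeq promoter was at hand for 9 of the 10 genes, and Vwf is named only. The Gp1ba window held 3 GATA matches and 1 ETS match, with the nearest GATA and ETS letters side by side at 23 to 11 bases before the start. The Gp1bb window held 1 GATA and 1 ETS match, the Gp9 window 1 ETS and 1 RUNX match, and the Itga2b window 2 ETS matches. Pf4 and Selp had 1 ETS match each, and Ppbp, Nrgn and Plek had no match to any of the searched letters. The bases after the Plek start were in no GENCODE transcript of the gene, so its window may not be its promoter. Plek stays in the shares that follow. ETS letters were thus found in 6 of 9 windows (66.7%), against 39.2% of all 32851 promoter windows of that length, and GATA letters in 2 of 9 (22.2%), against 26.5%. Both together stood in 2 of 9 windows, those of Gp1ba and Gp1bb, against 9.2% of all windows. A match is a description of the letters and not a measured binding site.

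**Figure D1:**
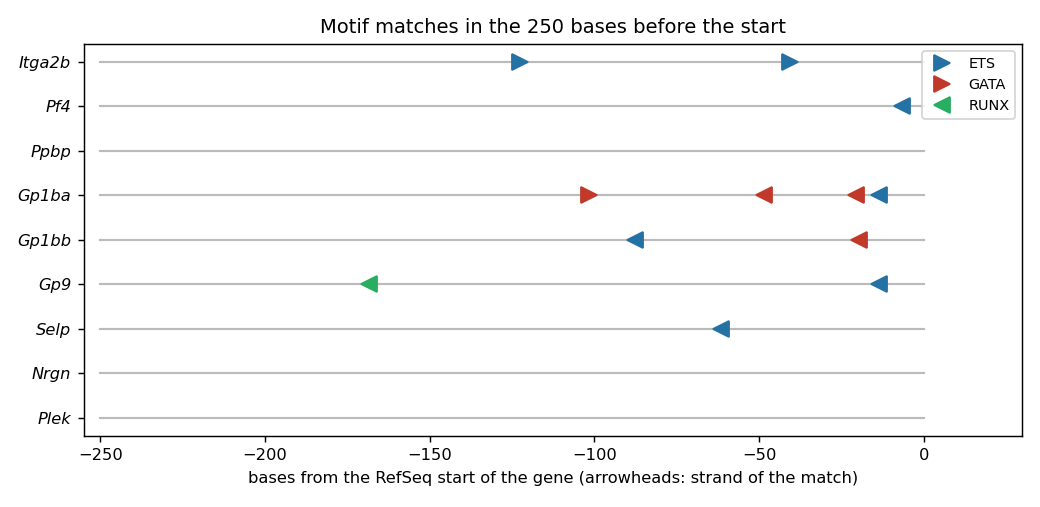
Position of GATA, ETS and RUNX letter matches in the 250 bases before the RefSeq start of 9 genes, in bases from the start; arrowheads point right for matches on the gene's strand and left for the opposite strand. Gp1ba holds 3 GATA matches, and Ppbp, Nrgn and Plek hold none of the motifs.

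The genes lie on 6 chromosomes and differ in structure (GENCODE M21, mm10). Pf4 (ENSMUSG00000029373.7, chr5:90772435-90773383) and Ppbp (ENSMUSG00000029372.7, chr5:90768518-90770063) are neighbours on the plus strand. Gp1bb (ENSMUSG00000050761.4, chr16:18620317-18622403) has a single exon, and Gp1ba (ENSMUSG00000050675.7, chr11:70639122-70642036) and Gp9 (ENSMUSG00000030054.4, chr6:87778072-87779768) have 2 exons each, of which 1 is coding. Pf4 and Ppbp have 3 exons, Nrgn (ENSMUSG00000053310.11, chr9:37544492-37552904) 4, Plek (ENSMUSG00000020120.15, chr11:16971206-17052381) 10, Selp (ENSMUSG00000026580.16, chr1:164115264-164150026) 16, Itga2b (ENSMUSG00000034664.13, chr11:102453297-102470122) 30 and Vwf (ENSMUSG00000001930.17, chr6:125546774-125686679) 52 in the main transcript. Of the 2087 bases of Gp1bb, 1902 also lie within the span of Sept5 and 1938 within that of Gm49601, both on the same strand. Overlap of their exons was not computed. Reads of these genes may not be told apart there, and the Gp1bb values are uncertain. The printed Gp1bb promoter window lies inside Sept5 as well. Selp and Plek overlap genes on the opposite strand, and whether the counting used strand is not given in the sources used.

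The values are those of the authors' 2 comparisons, labelled KO against labelled WT, within LSK and within LinNeg. The authors' deposited table for each gives a mean of normalized counts over the libraries, a log2 fold change with its standard error (SE) and the adjusted p-value of DESeq2, and a gene is called here when that adjusted p is under 0.05. The level under each label was derived from that mean and fold change, as a mean over 3 libraries with no spread of its own, because values per library were not used here. Depth per library is therefore unknown, and whether single libraries of the groups overlap was not analysed here. Each table has its own normalization, and levels are compared within a table only. Nothing in the labels says that the 3 libraries of a group are of different animals, and the p-values may thus reflect technical spread alone. U2af1 itself was higher under the KO label, at 4054 normalized counts against 2650 under the WT label in LSK (log2 fold change 0.61, SE 0.06) and at 3205 against 2037 under the WT label in LinNeg (0.65, SE 0.19), as derived from the authors' deposited tables. A count over the whole gene does not check a label when part of the gene may remain, and each direction below rests on the labels. In LSK the Y-linked gene Ddx3y was at 4.99 normalized counts under the KO label and 2949 under the WT label, and Xist, which coats the silenced X chromosome, at 62360 under the KO label and 347 under the WT label, derived from the authors' deposited table. In LinNeg Xist was at 41468 under the KO label and 40.0 under the WT label, while Ddx3y was not called, at 1255 under the KO label and 2165 under the WT label, derived in the same way. In LSK sex-linked transcripts thus moved with the label, while in LinNeg Xist did and the Y-linked Ddx3y and Eif2s3y were not called. Under the KO label in LinNeg both Xist and Ddx3y were read. The standard errors of their changes there were 1.81 and 1.64, beside 0.38 for Ddx3y in LSK. Whether the libraries of that group differ in sex cannot be seen without values per library. Any effect of sex therefore cannot be told apart from that of the U2af1 label in LSK, for every gene described below. The part of sex in the results was not tested in either population.

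The genes that define LSK cells were present in the LSK table. Kit stood at 14587 normalized counts under the KO label and 28724 under the WT label, and Ly6a, the gene of Sca-1, at 335 under the KO label and 593 under the WT label, derived from the authors' deposited table. Both were called lower under the KO label, Kit at -0.98 (SE 0.05) and Ly6a at -0.82 (SE 0.12) on the log2 scale. Genes of mature platelets differed in level in LSK. The collagen receptor Gp6 was close to 0, at 0.21 under the KO label and 0.11 under the WT label. The podoplanin receptor Clec1b was at 2.96 under the KO label and 5.94 under the WT label. Other platelet receptors were higher in LSK, such as Gp5, at 650 under the KO label and 780 under the WT label. Treml1 was at 25.3 under the KO label and 173 under the WT label in LSK. In LinNeg Gp6 was at 1.64 under the KO label and 11.6 under the WT label, and Clec1b at 3.32 under the KO label and 46.7 under the WT label. Treml1 was at 0.18 there under the KO label and 57.9 under the WT label. Gp5 was not called there, at 290 under the KO label and 169 under the WT label.

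In LSK cells 9 of the 10 genes fell under the KO label and none rose. Over all genes tested in the authors' deposited table for LSK, 29.2% were called lower and 32.4% higher. The log2 fold changes of the 9 genes ran from -3.45 for Ppbp to -1.12 for Vwf, so each was lower by more than 2-fold, and the median over all 10 was -1.71, against 0.04 over all 16482 genes tested. Gp1ba was the exception. In LinNeg cells 7 of the 10 genes fell, Nrgn rose, and Gp9 and Selp were not called. Over all genes tested in the authors' deposited table for LinNeg, 19.3% were called lower and 22.1% higher. The median over the 10 genes was -1.58 in LinNeg, against 0.16 over all 17108 genes tested. With fold changes recentred on that median gene the share called lower among all genes was 24.1% and the share called higher 17.7%, and 7 of the 10 genes were lower and 1 higher. Itga2b, Pf4, Ppbp, Gp1bb, Vwf and Plek fell in both populations. In these bulk samples, fewer cells of a type and less RNA per cell cannot be told apart.

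**Figure D2:**
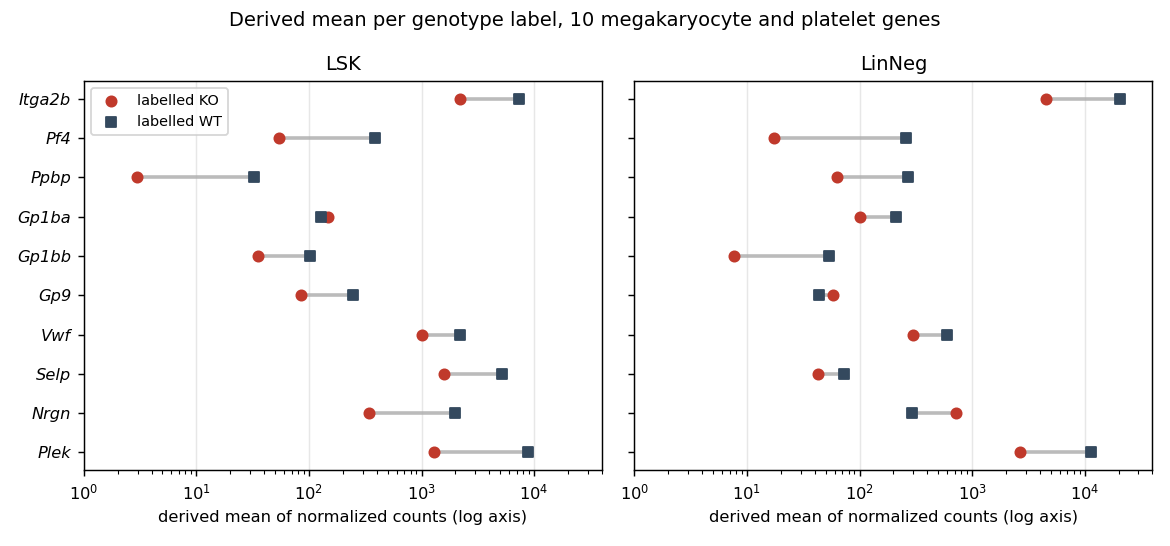
Derived mean of normalized counts under the KO label (circles) and the WT label (squares) for each gene, LSK left and LinNeg right, on a log axis; the grey line joins both labels. In LSK the KO circle is left of the WT square for 9 genes. The order is reversed in LinNeg for Nrgn, at 717 under the KO label and 294 under the WT label, and for Gp9, which was not called.

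The precision of the tables differed. The median standard error over the 10 genes was 0.20 in LSK and 0.45 in LinNeg, beside 0.13 in LSK and 0.28 in LinNeg over all genes tested in the authors' deposited tables. A change of a given size was thus less well resolved in LinNeg, most of all for Gp1bb, Gp9, Selp and Ppbp, whose standard errors there were 0.60 to 0.83.

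The GPIb-IX receptor is built from Gp1ba, which binds von Willebrand factor, Gp1bb, its disulphide-linked partner, and Gp9, which is needed for the complex to reach the surface. Each subunit that was called fell, and 1 was not called in each population. In LSK, Gp1ba had a derived mean of 148 normalized counts under the KO label, against 129 under the WT label, a log2 fold change of 0.20 (SE 0.21, adjusted p = 0.423) from the authors' deposited table. The 95% interval of that change, -0.21 to 0.60, holds 0 and leaves out a fall of 2-fold. The other subunits fell in the same cells. Gp1bb was at 35.5 under the KO label and 103 under the WT label in LSK (-1.54, SE 0.33, adjusted p = 9.48e-06 from the authors' deposited table). Gp9 was at 84.6 under the KO label and 244 under the WT label (-1.53, SE 0.19, adjusted p = 1.46e-15 from the authors' deposited table).

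In LinNeg cells Gp1ba and Gp1bb fell and Gp9 was not called. Gp1ba fell to 101 normalized counts under the KO label against 212 under the WT label (-1.08, SE 0.42, adjusted p = 0.029 from the authors' deposited table), a call that a threshold of 0.01 would end. Gp1bb fell to 7.61 against 54.0 under the WT label (-2.83, SE 0.83, adjusted p = 0.00257 from the authors' deposited table). Gp9 was at 58.0 under the KO label and 43.8 under the WT label. Its log2 fold change of 0.41 (SE 0.61, adjusted p = 0.638 from the authors' deposited table) has a 95% interval from -0.80 to 1.61, so its direction was not resolved. Gp1ba, the subunit not called in LSK, is the gene whose promoter window holds 3 GATA matches, and the window of Gp9, the subunit not called in LinNeg, holds none; no test links these letters to the values.

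Vwf encodes von Willebrand factor, the ligand of Gp1ba, and it fell in both populations. In LSK it stood at 1006 normalized counts under the KO label and 2183 under the WT label (-1.12, SE 0.14, adjusted p = 7.89e-15 from the authors' deposited table). In LinNeg it stood at 296 under the KO label and 598 under the WT label (-1.01, SE 0.28, adjusted p = 0.00104 from the authors' deposited table). The difference between these effects, LSK minus LinNeg, was -0.10 with a 95% interval from -0.71 to 0.50.

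Itga2b, the alpha chain of the fibrinogen receptor and the surface marker CD41, was the most abundant of the 10 genes per length in LinNeg. Its derived level there was 826 normalized counts per kilobase of exon under the KO label and 3794 under the WT label, a log2 fold change of -2.20 (SE 0.20, adjusted p = 2.42e-25 from the authors' deposited table). In LSK it fell to 405 per kilobase, against 1343 under the WT label (-1.73, SE 0.09, adjusted p = 1.5e-75 from the authors' deposited table). Under the WT label in LSK it ranked 3 of 10 per kilobase, behind Plek at 1983 and Nrgn at 1359 and ahead of Selp at 1174. Under the WT label in LinNeg the order was Itga2b, then Plek at 2522, Pf4 at 362, Ppbp at 250 and Nrgn at 202.

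Pf4 and Ppbp encode the CXC chemokines of the alpha granule, platelet factor 4 and pro-platelet basic protein, from neighbouring genes. In LSK, Pf4 was at 54.0 normalized counts under the KO label and 388 under the WT label (-2.84, SE 0.24, adjusted p = 2.78e-31 from the authors' deposited table). In LinNeg it was at 17.4 under the KO label and 261 under the WT label (-3.91, SE 0.47, adjusted p = 3.19e-15 from the authors' deposited table), the lowest log2 fold change of the 10 genes there. Only 1.16% of all genes tested in LinNeg had a lower log2 fold change than Pf4. Ppbp was scarce in LSK, with 2.97 normalized counts under the KO label and 32.4 under the WT label (-3.45, SE 0.74, adjusted p = 8.67e-06 from the authors' deposited table). In LinNeg it had 63.5 under the KO label and 271 under the WT label (-2.09, SE 0.60, adjusted p = 0.00198 from the authors' deposited table). Per kilobase, Pf4 exceeded Ppbp under the WT label in both tables, at 537 against 29.9 in LSK and 362 against 250 in LinNeg.

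Selp encodes P-selectin, which moves from the alpha granule to the surface when platelets are activated and binds leukocytes. In LSK it was abundant and fell to 1598 normalized counts under the KO label, against 5179 under the WT label (-1.70, SE 0.27, adjusted p = 5.76e-10 from the authors' deposited table). In LinNeg it was at 42.4 under the KO label and 72.1 under the WT label and was not called (-0.77, SE 0.61, adjusted p = 0.327 from the authors' deposited table). The interval of the LinNeg change, -1.96 to 0.43, holds the LSK value, and the test of the difference was not called (adjusted p = 0.306, normal test on the DESeq2 standard errors).

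Plek encodes pleckstrin, the main substrate of protein kinase C in platelets, which other white blood cells make too. It fell in both populations. In LSK it was at 1285 normalized counts under the KO label and 8897 under the WT label (-2.79, SE 0.11, adjusted p = 7.74e-149 from the authors' deposited table). In LinNeg it was at 2662 under the KO label and 11316 under the WT label (-2.09, SE 0.20, adjusted p = 5.05e-23 from the authors' deposited table).

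Nrgn encodes neurogranin, a small calmodulin-binding protein of neurons that platelets also carry. It is the gene of the 10 that was called in opposite directions. In LSK it fell to 344 normalized counts under the KO label, against 1974 under the WT label (-2.52, SE 0.09, adjusted p = 3.47e-159 from the authors' deposited table). In LinNeg it rose to 717 under the KO label, against 294 under the WT label (1.29, SE 0.39, adjusted p = 0.00338 from the authors' deposited table).

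**Figure D3:**
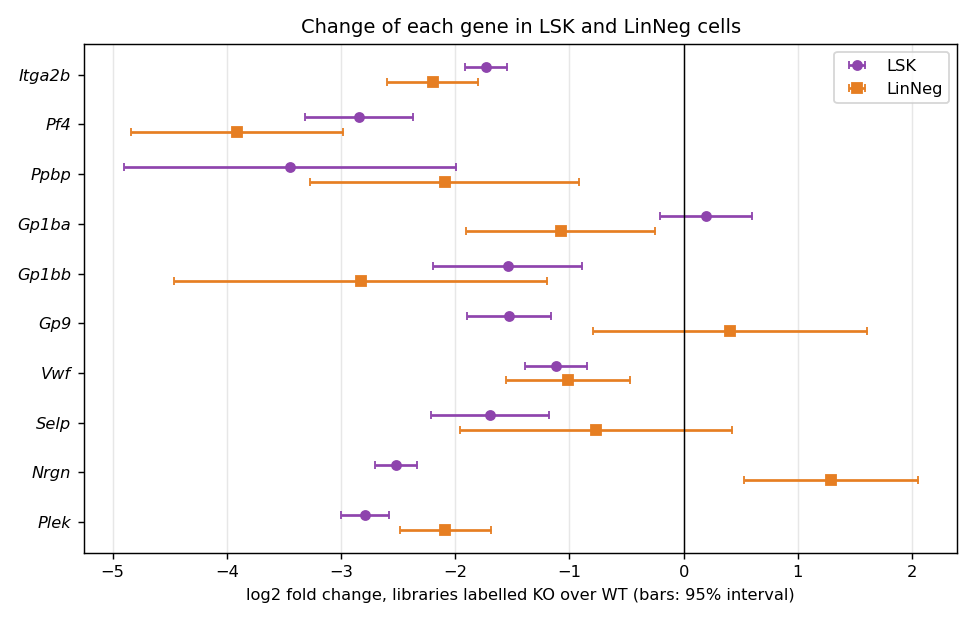
Log2 fold change of the KO label over the WT label for each gene in LSK (circles) and LinNeg (squares), with 95% intervals from the standard errors. The intervals of Nrgn lie on opposite sides of 0, and those of Gp1ba in LSK and of Gp9 and Selp in LinNeg cross 0.

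The effect in LSK was set against the effect in LinNeg by subtracting the log2 fold changes and dividing by the combined standard error, adjusted over 15735 genes, of which 31.9% were called different. The populations and the BMT label cannot be told apart in this test. Of the 10 genes 4 were called. The difference, LSK minus LinNeg, was -3.81 for Nrgn (SE 0.40, adjusted p = 1e-19), -1.93 for Gp9 (SE 0.64, adjusted p = 0.0107) and -0.70 for Plek (SE 0.23, adjusted p = 0.00931), all lower in LSK. It was 1.27 for Gp1ba (SE 0.47, adjusted p = 0.0246), which was lower in LinNeg. A share of 4 in 10 is near the share of all genes. Of the 6 genes not called, Itga2b and Pf4 had differences of 0.47 and 1.07 (adjusted p = 0.0976 and 0.114), with 95% intervals from 0.03 to 0.91 and from 0.03 to 2.11.

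Beyond these 10 genes, 65 other genes with roles in megakaryocytes or platelets were counted, in 5 lists by role. The lists were not limited to genes of this lineage alone, and the part of other cells in these counts was not tested. In LSK 40 of the 63 tested fell and 14 rose, with a median of -0.77, and in LinNeg 36 of 65 fell and 10 rose, with a median of -1.12. The shares over all genes tested, beside which these counts and those of each list stand, were 29.2% lower and 32.4% higher in LSK and 19.3% lower and 22.1% higher in LinNeg. Receptors fell in 10 of 15 and rose in 3 in LSK, with a median of -1.39, and fell in 8 of 16 and rose in 1 in LinNeg, with a median of -1.55. In LSK the collagen receptor chain Itga2 was at -3.71 (SE 0.34) and the thromboxane receptor Tbxa2r at -3.54 (SE 0.18) in the authors' deposited table. In LinNeg the ADP receptor P2ry1 was at -1.84 (SE 0.19), the ATP-gated channel P2rx1 at -1.80 (SE 0.22) and the tetraspanin Cd9 at -1.64 (SE 0.30) in the authors' deposited table. P2ry1 went the other way in LSK, at 0.71 (SE 0.10) in the authors' deposited table.

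Genes of platelet signalling fell in 12 of 13 in LSK and rose in none, with a median of -1.28, and fell in 8 and rose in 1 of 13 in LinNeg, with a median of -1.24. Thromboxane synthase, Tbxas1, fell in both, at -2.40 (SE 0.14) in LSK and -2.37 (SE 0.35) in LinNeg in the authors' deposited tables, and phospholipase C gamma 2, Plcg2, was at -1.45 (SE 0.09) in LSK and -2.13 (SE 0.14) in LinNeg. The G protein subunit Gng11 was at -3.26 (SE 0.26) in LSK, and Rasgrp2, which switches on the small GTPase Rap1, at -2.64 (SE 0.16) in LinNeg, in the authors' deposited tables. Cytoskeletal genes fell in 8 of 10 in LSK, with a median of -0.51, and in 9 of 11 in LinNeg, with a median of -1.29, and none rose. The platelet tubulin Tubb1 was at -4.53 (SE 0.61) and Tuba8 at -2.34 (SE 0.25) in LinNeg in the authors' deposited table. Tropomyosin 4, Tpm4, fell in both, at -1.61 (SE 0.13) in LSK and -1.74 (SE 0.19) in LinNeg, while in LSK the formin Diaph1 and talin, Tln1, fell by 0.77 and 0.56 on the log2 scale, in the authors' deposited tables.

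Granule and secreted proteins were called in both directions, in LSK at shares near those of all genes. In LSK 4 of 12 rose and 4 fell, with a median of 0.03, and in LinNeg 3 of 12 rose and 4 fell, with a median of 0.19. Multimerin 1, Mmrn1, was at -4.62 (SE 0.47), Nbeal2, which granules need to form, at -1.64 (SE 0.08) and the matrix protein Sparc at 5.03 (SE 0.35) in LSK in the authors' deposited table. In LinNeg the clotting factor chain F13a1 was at -6.12 (SE 0.15), the granule proteoglycan Srgn at -2.04 (SE 0.17) and the chemokine Ccl5 at 1.69 (SE 0.32) in the authors' deposited table. Some were called the other way in the other population, with F13a1 at 0.97 (SE 0.12) and Srgn at 0.35 (SE 0.06) in LSK and Mmrn1 at 1.12 (SE 0.38) in LinNeg in the authors' deposited tables. Transcription factors were also called in both directions, with 7 of 13 higher and 6 lower in LSK and 5 higher and 7 lower in LinNeg. Gata1 and Gfi1b, which serve red cells and megakaryocytes, rose in LSK, at 1.89 (SE 0.11) and 1.36 (SE 0.11), while Etv6 fell, at -1.28 (SE 0.07), in the authors' deposited table. In LinNeg Zfpm1, the cofactor of Gata1, rose, at 2.51 (SE 0.23), while Runx1 and Gata2 fell, at -2.23 (SE 0.12) and -2.19 (SE 0.28), in the authors' deposited table.

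**Figure D4:**
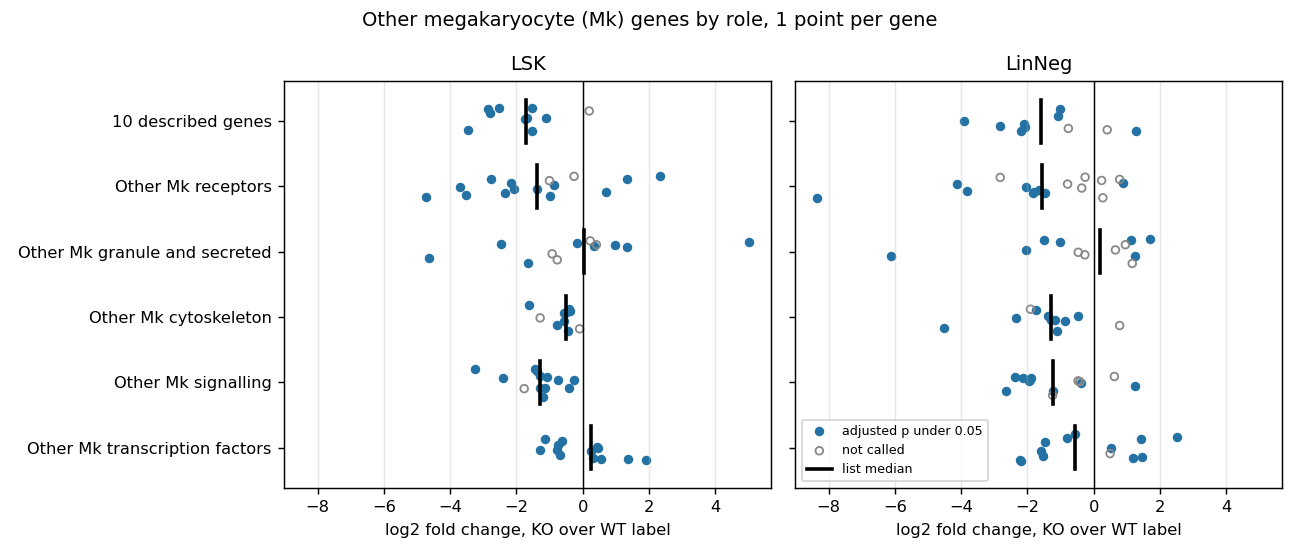
Log2 fold change of the KO over the WT label for the 10 genes and for 5 lists of other genes with megakaryocyte roles. LSK is left and LinNeg right. Filled points passed the adjusted p and black bars are list medians. The lists were not limited to genes of this lineage alone. Receptors, signalling and cytoskeletal genes lie mostly left of 0, and granule genes and transcription factors lie on both sides.

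Markers of other cells, some of which also read these genes, were counted in the same way. The counts of each marker list, here and below, stand beside the shares over all genes tested. These were 29.2% lower and 32.4% higher in LSK and 19.3% lower and 22.1% higher in LinNeg. In LSK, stem cell markers fell in 6 of 9 and rose in 1, and their summed level was 5887 normalized counts under the KO label and 26735 under the WT label. The 10 genes summed to 6766 under the KO label and 26453 under the WT label in the same cells. Plek and Itga2b supplied 3492 of that sum under the KO label and 16220 under the WT label. Hlf and Meis1, transcription factors of stem cells, were at -3.95 (SE 0.10) and -2.40 (SE 0.08) in the authors' deposited table for LSK. Without Hlf the sums of the stem cell markers were 5104 under the KO label and 14647 under the WT label. Endothelial markers, several of which stem cells also express, fell in 7 of 9 and rose in 1, with sums of 4099 under the KO label and 12331 under the WT label, Tie1 and Pecam1, the most abundant of those called, being at -2.81 (SE 0.09) and -1.23 (SE 0.09) in the authors' deposited table. Erythroid markers rose in 8 of 8, with sums of 73006 under the KO label and 8899 under the WT label, Tfrc and Ermap being at 2.85 (SE 0.10) and 3.26 (SE 0.32) in the authors' deposited table. The part of these cells in the falls of Vwf, Selp and Itga2b was not tested.

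Neural markers rose in 10 of 10 in LSK, with sums of 2676 under the KO label and 24.0 under the WT label, Slc1a2 being at 8.45 (SE 0.53) and Map2 at 6.82 (SE 0.63) in the authors' deposited table. In these libraries Nrgn, which neurons express, fell. In LinNeg neural markers rose in 7 of 10, with sums of 2951 under the KO label and 652 under the WT label, the most abundant of those called, Kif1a and Slc1a2, being at 2.85 (SE 0.40) and 1.81 (SE 0.41) in the authors' deposited table, and there Nrgn rose. Their part in the rise of Nrgn was not tested.

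In LinNeg, monocyte and macrophage markers fell in 7 of 8, with sums of 1476 under the KO label and 52077 under the WT label, and Irf8 and Mpeg1 were at -6.07 (SE 0.15) and -7.10 (SE 0.14) in the authors' deposited table. In LSK monocyte and macrophage markers fell in 3 of 8, near the share of all genes, and rose in 1. Their sums there were 3925 under the KO label and 8036 under the WT label. Lyz2 and Irf8 were at -1.43 (SE 0.13) and -1.49 (SE 0.12) in the authors' deposited table for LSK. Mast cell markers summed to 17765 under the KO label and 86365 under the WT label in LinNeg, where Cpa3 and Ms4a2 were at -2.82 (SE 0.22) and -2.72 (SE 0.26) in the authors' deposited table and 3 of 6 fell while the serine proteases Cma1, Tpsb2 and Mcpt4 rose. In LSK mast cell markers rose in 5 of 6, with sums of 4202 under the KO label and 2115 under the WT label, Ms4a2 being at 1.37 (SE 0.16) and Tpsb2 at 4.24 (SE 0.86) in the authors' deposited table. Stem cell markers in LinNeg rose in 4 and fell in 1 of 9, with sums of 4508 under the KO label and 2496 under the WT label, Mllt3 being at 1.53 (SE 0.19) and Meis1 at -1.52 (SE 0.24) in the authors' deposited table, and without Mllt3 the sums were 1584 under the KO label and 1484 under the WT label. Endothelial markers in LinNeg rose in 2 and fell in 1 of 10, which is not above the shares of all genes. Their sums were 3981 under the KO label and 14606 under the WT label. Pecam1 (-2.76, SE 0.15) was the gene that fell and Egfl7 (0.70, SE 0.26) was among those that rose in the authors' deposited table. The lower endothelial sum rests on Pecam1, since the other 9 summed to 2034 under the KO label and 1384 under the WT label. Erythroid markers rose in 8 of 8 in LinNeg, with sums of 71113 under the KO label and 13568 under the WT label, Tfrc being at 1.83 (SE 0.17) and Ermap at 2.58 (SE 0.22) in the authors' deposited table. White blood cells and mast cells can also read Plek and Itga2b, and the part of any such cells in the falls of these genes in LinNeg was not tested. Itga2b and Plek supplied 7169 of the summed counts of the 10 genes under the KO label and 32009 under the WT label in LinNeg, and the other 8 genes summed to 1302 under the KO label and 1805 under the WT label.

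**Figure D5:**
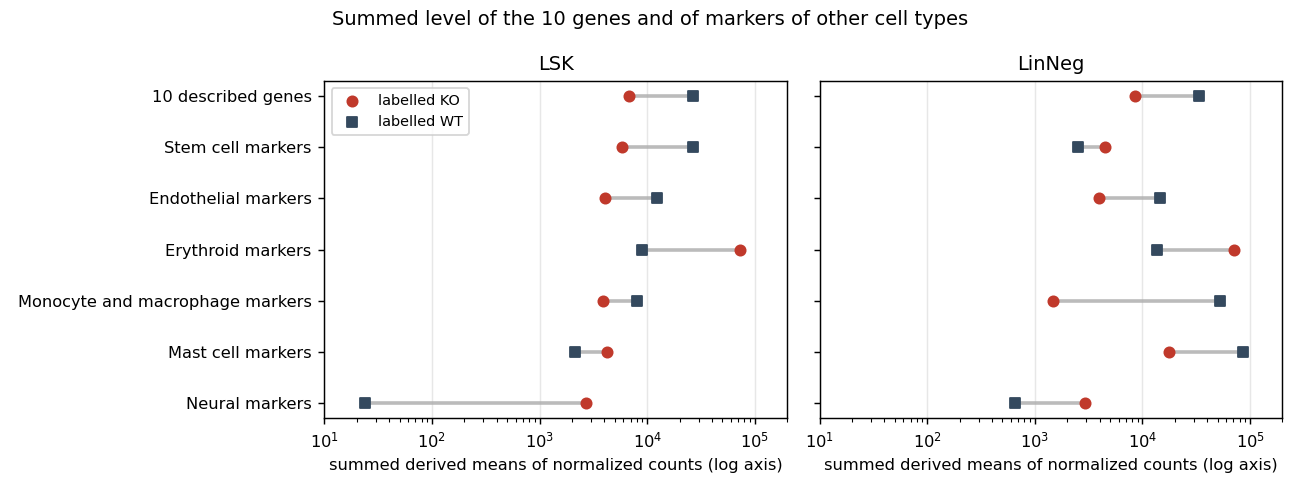
Summed derived means of normalized counts of the 10 genes and of marker lists of other cells under the KO label (circles) and the WT label (squares), LSK left and LinNeg right, on a log axis. In LSK the sums of the 10 genes and of the stem cell markers are both lower under the KO label; in LinNeg the 10 genes are lower, with 8472 against 33814 under the WT label, most of it from Itga2b and Plek, and the stem cell markers are higher, with 4508 against 2496.

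The number of exons can be set beside the changes as a description. In LSK the log2 fold change was -1.54 for the single-exon Gp1bb, and 0.20 and -1.53 for Gp1ba and Gp9 with 2 exons. It was -2.84 for Pf4 and -3.45 for Ppbp with 3 exons, -2.52 for Nrgn with 4 and -2.79 for Plek with 10. It was -1.70 for Selp with 16 exons, -1.73 for Itga2b with 30 and -1.12 for Vwf with 52, in the authors' deposited table. In LinNeg it was -2.83 for Gp1bb and -1.08 and 0.41 for Gp1ba and Gp9, in the authors' deposited table. In the same order as above, it was -3.91 for Pf4, -2.09 for Ppbp, 1.29 for Nrgn and -2.09 for Plek. It was -0.77 for Selp, -2.20 for Itga2b and -1.01 for Vwf. These are values side by side with no test, and splicing itself was not analysed here.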

How the data were processed

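RNA was measured in 12 libraries of mouse bone marrow. Marrow was depleted of lineage cells and sorted, and ribosomal RNA was removed before library preparation, per the labels' protocols. Per the submitters' processing notes, HISAT2, SAMtools 1.10, StringTie and DESeq2 were used with mm10; which program counted reads is not given in the sources used here. Per the file headers, each of the authors' 2 deposited tables holds per gene a mean of normalized counts (a signal on a linear scale), a log2 fold change, its standard error (also log2), the Wald statistic (a score), a p-value and an adjusted p-value. Counts per library were not used here, so depth and its precision are unknown.

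Each log2 fold change was taken as the Wald statistic multiplied by the standard error, since the deposited ones are rounded to 2 decimals. Of 24542 rows, 5 that name no gene and 4 with repeated symbols were left out; 26.4% of the LSK total and 38.0% of the LinNeg total lay outside features. Adjusted p-values, over all genes of a table, are the authors' (DESeq2, Benjamini-Hochberg); no p was adjusted over the 10 genes alone. Means per label assume 3 libraries a side. Intervals are 95%, from the standard errors. The difference of effects was tested with a two-sided normal test and Benjamini-Hochberg adjustment over all genes tested in both tables. The test was also run on simulated data. Their errors were drawn as normal with the same standard errors, so that run cannot check these assumptions. Exon lengths and positions come from GENCODE M21, promoters from RefSeq GRCm38.p6, where the bases after the start matched a GENCODE transcript for 8 of 9 genes, all but Plek. The software was scipy 1.17.1, numpy 2.4.6, pandas 2.3.3 and matplotlib 3.10.9 under Python 3.11.15.

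The 10 genes, the lists and the motifs were chosen with earlier results of these data known. From each pathway list, up to 3 called genes with the largest change and a mean of at least 100 were named per table, and from each marker list the 2 called genes with the highest mean. Of the genes so chosen, 1 is not reported here by name and stays in the list counts. P2ry1, F13a1 and Srgn in LSK, Mmrn1 in LinNeg, Cma1 and Mcpt4, the markers of sex, of LSK cells and of mature platelets were named, and genes were left out of summed levels, after their values were seen. Alternatives were a threshold of 0.01, adjustment over every gene with a p-value, recentring on the median gene, a mean of at least 100, a change of at least 2-fold, and a promoter window with 50 bases after the start.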

Additional observations from a re-analysis of the deposited data

Results flagged for a closer look

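Differences between the effects in LSK and in LinNeg cells that passed the test of the difference (LSK minus LinNeg, log2 scale, adjusted over all genes) were found for 4 of the 10 genes, beside 31.9% of all 15735 genes tested. They were -3.81 for Nrgn, whose changes had opposite signs, -1.93 for Gp9, -0.70 for Plek and 1.27 for Gp1ba. Of the other megakaryocyte genes named, the LSK effect was the lower for Itga2 (-2.24), Tbxa2r (-3.18), Mmrn1 (-5.74), Ccl5 (-1.47), Nbeal2 (-0.63), Gng11 (-3.89) and Zfpm1 (-2.05). It was the higher for P2ry1 (2.54), F13a1 (7.08), Sparc (5.49), Srgn (2.39), Tubb1 (3.25), Tuba8 (1.93), Tln1 (0.55), Diaph1 (0.39), Rasgrp2 (1.89), Plcg2 (0.68), Gata2 (1.49) and Runx1 (1.49). The populations and the BMT label cannot be told apart in these differences, and no cause was tested.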

How the results depend on the processing

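With the threshold at 0.01 in place of 0.05, the genes among the 10 whose effect differed between LSK and LinNeg numbered 2 in place of 4, since Gp9 (adjusted p = 0.0107) and Gp1ba (0.0246) no longer passed, and Gp1ba in LinNeg (adjusted p = 0.029) was no longer called; the stricter threshold is the cause by its construction. The counts of called genes otherwise stayed within 1.5 times under each alternative run: 7 to 9 of 10 in LSK and 7 to 8 of 10 in LinNeg, where a mean of at least 100 left 8 of the 10 to test in LSK and 7 in LinNeg. No change of sign was found among them under recentring, where Itga2b was at -2.35 in LinNeg. Calls in the 5 pathway lists over both tables numbered 100, with 103 after recentring and 93 with a mean of at least 100. With 50 bases after the start added to the promoter windows, GATA letters stood in 3 of 9 windows (33.3%) against 29.8% of all, in place of 2 of 9 (22.2%) against 26.5%, so the order of the shares turned, and GATA with ETS letters stood in 3 of 9 against 12.6% of all. No paired analysis was possible because only the authors' comparisons were used, and for the same reason leaving out each replicate, a replicate block and a refit with other software were not run. Depth per library is unknown, so the genes with low means (Ppbp and Gp1bb in LSK, Gp1bb, Gp9 and Selp in LinNeg) rest on the standard errors alone.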
